A study of Mus musculus with 18 samples.

Results

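The members described here are the array probes that carry the name of a public nucleotide sequence record. They were chosen by their identifiers alone: every probe whose identifier starts with neither ASMM9PARTA nor CUST_ and holds no lincRNA in any letter case. The rule found 581 probes among the 37820 of the deposited table. The rule itself uses no measured value, although it was chosen with earlier results of these data known. Expression was measured in whole testis of mouse at 6 stages, with 3 arrays each, 18 in all: embryonic days 12.5 and 15.5 (E12.5 and E15.5), postnatal days 7, 14 and 21 (P7, P14 and P21) and adult. The labels give no strain, genotype, treatment or adult age, and they do not say whether the replicates of a stage came from separate animals or litters, so the p-values speak only to the spread among these arrays, part of which may be technical. Each RNA sample was depleted of ribosomal RNA, copied by random priming into cRNA with the dye Cy3 and hybridised alone to a 1-colour array.

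As background, a sequence record is an entry of the public nucleotide archives. Many such records are expressed sequence tags (ESTs), single reads from the ends of cDNA clones, which show that a stretch of sequence was once copied from RNA but often not which gene it came from. Others are full-length cDNA sequences. Records that could not be placed in a coding gene have been a common source of candidate long noncoding RNAs, transcripts that do not encode a protein. In the testis, the stages span the arrest of fetal germ cells, the return of these cells to division after birth, entry into meiosis and the making of spermatids and sperm, while the share of Sertoli, Leydig and other somatic cells falls as germ cells multiply. In whole testis, fewer cells of a type and less RNA per cell cannot be told apart.

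All 581 identifiers were a record name followed by _P1, and the 581 records were all different. The number of records with several probes was 0, so agreement between probes of a record could not be described. The identifiers began with 41 different letter codes. By archive convention, AK and BC, with 77 probes together, mark full-length cDNA collections. Codes given out for ESTs by the Japanese archive (AU, AV, BB, BY, C and CJ) marked 171 probes and codes for ESTs from the American archive 298. The codes BX and CR of the European archive marked 23, and 12 probes were named by single submitted sequences (AB, AF, D, DQ, FJ, M, U and X). None of the 581 records (0 matched) appeared in the gene tables, although these hold 8914 names written with the same letter codes. Probes are therefore named by their identifiers, no gene list or cell type marker could be applied, and genome position and annotation are not given. The probe sequences were not used here.

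Values are the authors' signals, taken to be on a log2 scale on which 1 unit is 2-fold. The log base is inferred from the range of the table, from 2.38 to 18.34, and is not given in the sources used here. The members were dimmer than the table as a whole. Their median of mean signal over the 18 arrays was 7.25 against 7.93 for all probes, and 209 members (36.0%) lay among the 25% dimmest probes, with a mean signal up to 6.53. They nevertheless ran from 4.53 to 17.54. No detection flags were used, so a low value cannot be read as presence or absence, and changes between low values have no stated limit.

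Several arrays stood apart from their stage. E12.5 replicate 2 correlated across members at a mean of 0.968 with the other E12.5 arrays and at 0.972 with E15.5 replicate 2, the closest array to it. P21 replicate 1 correlated at a mean of 0.962 with the other P21 arrays, and adult replicate 1 at 0.943 with the other adult arrays, the lowest of the 18. At P14 these means were 0.994 to 0.995. The median signal of the members was 6.92, 7.45 and 6.91 in E12.5 replicates 1, 2 and 3, 6.81, 7.40 and 7.31 in the P21 arrays and 7.11, 7.42 and 7.37 in the adult arrays, while it lay between 7.14 and 7.47 at E15.5, P7 and P14. Over all probes the array medians differed less, from 7.79 to 8.0. The members were therefore low as a group in E12.5 replicates 1 and 3 and in P21 replicate 1. Counts that move with an array are given without it as well.

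Of the 581 members, 345 (59.4%) differed between the 6 stages, against 73.7% of all probes. A probe was counted when limma's F test gave a Benjamini-Hochberg adjusted p below 0.05 over all 37820 probes and its stage means spanned at least 1 log2 unit. Ranges of at least 8-fold were found in 96 members (16.5%), against 30.2% of all probes. Ranges of at least 32-fold were found in 22 members (3.79%), against 8.38%. The count that differed was 382 without both E12.5 replicate 2 and P21 replicate 1. Over all probes 29435 differed in that fit, in place of 27890. Dimmer probes were called less often in the whole table as well. Among members in the dimmest of 5 equal groups of all probes ranked by mean signal, 72 of 170 (42.4%) differed, against 54.0% of all probes of that group. In the brightest group 75 of 96 members (78.1%) differed, against 87.7%. The share of members was below that of all probes in each of the 5 groups. The difference between the shares was not tested.

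Signal was highest either in the adult or in the fetal testis for most of the 345 members that differed. The adult held the highest mean of 105 members (30.4%), E15.5 that of 98 (28.4%) and E12.5 that of 62 (18%). For all probes that differed these shares were 25.3%, 23.7% and 20.0%. The juvenile stages P7, P14 and P21 were highest for 29 (8.41%), 30 (8.70%) and 21 members (6.09%), against 9.70%, 10.6% and 10.7% of all probes that differed. The adult was also the most common low point, with the lowest mean of 160 members (46.4%), against 46.4% of all probes that differed. The most frequent courses ran from E15.5 as the highest to the adult as the lowest stage (69 members), from E12.5 as the lowest to the adult as the highest (51) and from E12.5 as the highest to the adult as the lowest (48). The courses were counted for the members only, so they cannot be called particular to them. These counts carry no test. Several depended on arrays that stood apart: without P21 replicate 1 the highest mean was at P21 for 64 members and in the adult for 88 (24.6%), where the full set gave 21 and 105. The count with the lowest mean at E12.5, 72 members, was 107 without E12.5 replicate 2 and 125 without that array and P21 replicate 1, but 53 with E12.5 replicate 1 left out and 50 with replicate 3 of that stage left out. The share highest in the adult was 37.6% after quantile normalization again and 35.7% after median centring of each array. Over all probes that differed, the adult was highest for 7050 of 27890 in the full set and 6690 of 28369 without P21 replicate 1. After quantile normalization again it was highest for 8405 of 27895 of them, and after median centring for 8149 of 27646.

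Steps between neighbouring stages were called for some of the 345 members and not for others. None of the 5 adjacent intervals was called in 119 of them (34.5%), against 24.5% of all probes that differed. In 123 (35.7%) 1 interval was called, against 34.9%, and in 103 (29.9%) 2 or more were, against 40.6%. Signal was called as rising in an interval and as falling in another in 58 members (16.8%), against 21.9%. The stage means rose at every step in 24 members (6.96%), against 4.08%, and fell at every step in 17 (4.93%), against 4.77%. These shares were not tested against each other. The count of steady rises was 14 without P21 replicate 2 and 15 without E12.5 replicate 3. A single stage led every other by at least 2-fold in 54 members (15.7%), against 18.5%, and for 29 of them (8.41%) that stage was the adult, against 9.75%. The adult lead was found in 19 members with both E12.5 replicate 2 and P21 replicate 1 left out, in 22 without P21 replicate 1 and in 22 without adult replicate 2, against 43 without adult replicate 1.

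The 10 members with the largest range between stage means are given array by array, in the order of replicates 1, 2 and 3. AK132675_P1, a full-length cDNA record, had the largest range, 10.63 (adjusted p = 5.31e-12, limma F test). Its signal was 10.28, 11.27 and 10.24 at E12.5, then 10.70, 10.13 and 10.53 at E15.5, 9.49, 9.47 and 9.60 at P7, 6.71, 6.74 and 6.39 at P14, 11.79, 13.21 and 12.98 at P21 and 17.23, 17.25 and 17.25 in the adult. The fetal level was thus lost by P14 before signal rose to the adult level, and the P14, P21 and adult arrays overlapped with no other stage. AV277464_P1, an EST, had a range of 9.34 (adjusted p = 1.46e-14, limma F test). It measured 7.50, 7.46 and 7.57 at E12.5, then 6.06, 5.82 and 5.78 at E15.5, 6.75, 6.20 and 6.35 at P7, 13.55, 13.57 and 13.44 at P14, 15.31, 15.05 and 15.30 at P21 and 14.09, 14.27 and 13.97 in the adult. It was low at all stages up to P7 and high from P14 on, with a peak at P21.

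Another 4 members had their highest mean in the adult, with adult arrays close together in all but CA585643_P1. BU962981_P1 measured 4.76, 5.24 and 5.04 at E12.5, then 6.23, 4.82 and 5.33 at E15.5, 4.19, 5.40 and 3.87 at P7, 4.0, 3.47 and 3.25 at P14, 6.46, 8.29 and 7.70 at P21 and 11.31, 11.02 and 11 in the adult (range 7.54, adjusted p = 6.49e-09, limma F test). BC172760_P1, another full-length cDNA record, measured 8.52, 9.92 and 8.60 at E12.5, then 9.87, 9.87 and 9.93 at E15.5, 8.97, 8.91 and 9.18 at P7, 9.04, 9.34 and 9.07 at P14, 15.20, 15.74 and 15.68 at P21 and 16.63, 16.50 and 16.48 in the adult (range 7.52, adjusted p = 1.30e-12, limma F test). Both rose at P21, from very different levels. BU962981_P1 rose again in the adult, while the adult gain of BC172760_P1, from means of 15.54 to 16.54, just missed the 2-fold limit. BU843812_P1 measured 6.75, 7.49 and 6.76 at E12.5, then 6.85, 7.23 and 6.67 at E15.5, 6.74, 7.04 and 5.50 at P7, 5.51, 5.43 and 5.16 at P14, 5.52, 6.72 and 7.17 at P21 and 11.66, 11.88 and 11.86 in the adult (range 6.43, adjusted p = 1.33e-08, limma F test). It was high only in the adult arrays. CA585643_P1 measured 8.63, 9.96 and 8.54 at E12.5, then 8.84, 9.43 and 9.63 at E15.5, 10.32, 10.40 and 10.17 at P7, 13.80, 13.66 and 13.74 at P14, 13.71, 14.47 and 11.23 at P21 and 14.97, 16.10 and 15.50 in the adult (range 6.48, adjusted p = 2.19e-07, limma F test). It rose at P14 and again in the adult, and its P21 arrays were the most scattered, with replicate 3 the lowest.

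A further 3 of the 10 members were bright in the fetal testis and lost signal with age. AF416735_P1, a single submitted sequence, measured 14.52, 13.39 and 14.39 at E12.5, then 14.22, 13.94 and 13.89 at E15.5, 11.50, 11.70 and 11.88 at P7, 9.68, 9.67 and 9.74 at P14, 7.32, 8.87 and 8.20 at P21 and 6.03, 5.76 and 6.11 in the adult (range 8.13, adjusted p = 1.61e-11, limma F test). The 2 fetal stages overlapped, and every later stage lay below the one before it without overlap. AV588426_P1 measured 16.55, 16.93 and 16.52 at E12.5, then 14.69, 14.81 and 14.70 at E15.5, 12.24, 12.30 and 12.40 at P7, 12.25, 12.34 and 12.30 at P14, 11.43, 12.09 and 11.74 at P21 and 10.41, 9.87 and 9.93 in the adult (range 6.60, adjusted p = 1.96e-12, limma F test). Most of its fall came before P7, and the P7 and P14 arrays overlapped. AA981261_P1 measured 11.18, 11.76 and 11.16 at E12.5, then 12.13, 12.34 and 12.31 at E15.5, 12.42, 12.60 and 12.33 at P7, 10.11, 9.66 and 10.05 at P14, 9.25, 7.02 and 7.18 at P21 and 7.40, 4.65 and 5.86 in the adult (range 6.48, adjusted p = 1.67e-07, limma F test). Its signal was highest at E15.5 and P7, where the arrays overlapped, and replicate 1 was the highest array of P21 and of the adult.

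The last of the 10, CF983472_P1, also had its highest mean in the adult but rested on less even arrays. It measured 6.03, 6.90 and 15.58 at E12.5, then 6.24, 6.40 and 5.96 at E15.5, 8.49, 6.25 and 3.99 at P7, 4.95, 4.33 and 4.06 at P14, 8.57, 8.44 and 8.56 at P21 and 10.54, 10.75 and 11.06 in the adult. E12.5 replicate 3 was above every other array, and the SD at E12.5 was 5.28. Its range of 6.34 passed the F test (limma, adjusted p = 0.0255), but not without P14 replicate 2, P14 replicate 3, adult replicate 2 or adult replicate 3, where the adjusted p reached 0.0585. The ranges of the other 9 members passed the test under every alternative tried.

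From E12.5 to E15.5, the interval in which male germ cells of the fetus stop dividing, 71 members were called, 12.2% of them, against 20.1% of all probes. Calls between 2 stages needed an adjusted p below 0.05 over all probes and a change of 2-fold or more, which is 1 log2 unit. Signal rose in 44 members (7.57%), against 10.6% of all probes, and fell in 27 (4.65%), against 9.46%. The median change was 1.55 among these rises and −1.36 among the falls, against 1.59 and −1.89 for all called probes. BY552761_P1 rose by 4.98 (SE 0.34, adjusted p = 6.19e-08, limma), from 5.72, 6.01 and 5.87 to 11.06, 10.52 and 10.96. AV495601_P1 rose by 4.85 (SE 0.47, adjusted p = 2.46e-06, limma), from 4.55, 6.15 and 4.41 to 10.38, 9.35 and 9.95. Both stayed above their E12.5 arrays in every later array, with P7 means of 9.84 and 9.59 and adult means of 7.51 and 8.84. CA532251_P1 fell by 3.24 (SE 0.38, adjusted p = 1.76e-05, limma), from 10.41, 10.46 and 10.43 to 7.56, 6.69 and 7.34. BY274576_P1 fell by 3.01 (SE 0.68, adjusted p = 0.00416, limma), from 9.67, 6.10 and 9.71 to 5.89, 4.95 and 5.60. Its E12.5 replicate 2 lay nearer to the E15.5 arrays than to the other E12.5 arrays, and the fall was 4.21 without that array. The call for BY274576_P1 was lost when only the arrays of these 2 stages were fitted (adjusted p = 0.0770, limma). The number of members called was 107 without E12.5 replicate 2, with 73 rises and 34 falls. It was 50 both without replicate 1 and without replicate 3 of that stage. Over all probes 7602 were called in the full set, 10780 without E12.5 replicate 2, and 5068 and 5119 without replicates 1 and 3. Replicates 1 and 3 of E12.5 correlated at 0.990 across members and at 0.997 over all probes, the closest pair of the series over all probes. Averaged into 1 sample they left 50 calls of members, with 32 rises and 18 falls. The members as a group had their lowest fetal medians in E12.5 replicates 1 and 3, and the part of this in the balance of rises and falls was not tested.

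From E15.5 to P7, across birth, 72 members (12.4%) were called, against 15.7% of all probes. Signal rose in 30 (5.16%), against 7.5%, and fell in 42 (7.23%), against 8.23%. Rises had a median of 1.37 and falls one of −1.62, against 1.66 and −1.52 over all called probes. The steepest falls belonged to members with a higher mean at E15.5 than at E12.5 or P7. BU937478_P1 fell by 4.03 (SE 0.50, adjusted p = 4.19e-05, limma), from 8.57, 7.96 and 8.43 to 3.92, 4.74 and 4.21. It had been low at E12.5, at 4.74, 6.29 and 4.45, and it was high again in the adult, at 9.92, 9.12 and 9.34. AK018881_P1 fell by 2.80 (SE 0.43, adjusted p = 2.52e-04, limma), from 8.45, 7.72 and 7.92 to 5.41, 5.14 and 5.13, and its adult mean was 6.79. CF728761_P1 rose by 2.10 (SE 0.33, adjusted p = 2.95e-04, limma), from 8.48, 8.69 and 8.72 to 10.52, 10.56 and 11.09. BX521937_P1 rose by 1.99 (SE 0.21, adjusted p = 7.97e-06, limma), from 8.05 ± 0.20 at E15.5 to 10.04 ± 0.12 at P7 (SD, n = 3) without overlap. The first of these stayed high, with an adult mean of 12.25, while the second returned to 7.67. Without E15.5 replicate 1 the falls numbered 25 and the rises 25. Over all probes they numbered 2446 and 2409, in place of 3113 and 2838.

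From P7 to P14, when germ cells first enter meiosis, 45 members (7.75%) were called, against 12.8% of all probes. Signal rose in 22 (3.79%), against 6.21%, and fell in 23 (3.96%), against 6.64%. Rises had a median of 1.5 and falls one of −1.58, against 1.52 and −1.46 over all called probes. AV277464_P1, shown above, rose by 7.09 (SE 0.18, adjusted p = 2.56e-12, limma), the largest change of any member between adjacent stages. CA585643_P1 rose by 3.44 (SE 0.61, adjusted p = 9.95e-04, limma). AK132675_P1 fell by 2.91 (SE 0.33, adjusted p = 1.87e-05, limma), and AA981261_P1 fell by 2.51 (SE 0.58, adjusted p = 0.00686, limma). In these 4 members the P7 and P14 arrays did not overlap. The number called was 27 without P7 replicate 2 (11 rises and 16 falls) and 29 without P14 replicate 2 (12 and 17). Over all probes 3432 and 3726 were called in these fits, in place of 4858. The number of members that rose was 13 without P14 replicate 1, where 1711 of all probes rose in place of 2348.

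From P14 to P21, the interval in which the first spermatids form, 56 members (9.64%) were called, against 23.5% of all probes. Signal rose in 20 (3.44%), against 9.2%, and fell in 36 (6.20%), against 14.3%. Rises had a median of 1.67 and falls one of −1.46, against 2.05 and −1.59 over all called probes. BC172760_P1 rose by 6.39 (SE 0.29, adjusted p = 1.32e-10, limma) and AK132675_P1 by 6.05 (SE 0.33, adjusted p = 1.14e-09, limma), both without overlap between the stages. CN710360_P1 fell by 2.71 (SE 0.54, adjusted p = 0.00117, limma), from 13.86, 13.57 and 13.95 to 12.99, 9.65 and 10.61. AK188366_P1 fell by 2.45 (SE 0.57, adjusted p = 0.00366, limma), from 14.54, 14.34 and 14.68 to 14.11, 10.63 and 11.46. In both, P21 replicate 1 lay close to the P14 arrays. Without that array the falls were 3.66 and 3.47, and the call for AK188366_P1 was lost when only the arrays of these 2 stages were fitted (adjusted p = 0.0723, limma). Without P21 replicate 1, 32 members rose and 41 fell. Over all probes 3779 rose and 6357 fell in that fit, in place of 3481 and 5413.

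From P21 to the adult 140 members (24.1%) were called, the most of the 5 adjacent intervals, against 30.9% of all probes. Signal rose in 51 (8.78%), against 10% of all probes, and fell in 89 (15.3%), against 20.9%. Rises had a median of 1.74 and falls one of −1.48, against 2.06 and −1.48 over all called probes. BU843812_P1 rose by 5.33 (SE 0.41, adjusted p = 6.52e-08, limma) and AK132675_P1 by 4.58 (SE 0.33, adjusted p = 3.25e-08, limma). BB791535_P1 fell by 2.94 (SE 0.33, adjusted p = 4.55e-06, limma), from 7.75, 7.67 and 7.03 to 3.55, 4.87 and 5.20. AV038163_P1 fell by 2.55 (SE 0.14, adjusted p = 1.66e-09, limma), from 17.27, 17.20 and 17.18 to 14.82, 14.51 and 14.66. The latter was among the brightest members with stage means from 16.83 to 17.34 before the adult. The balance depended on the scaling and on the P21 arrays. Of the members called, 36.4% rose in the deposited values, whereas median centring gave 62 rises and 68 falls and quantile normalization again gave 62 of each. Over all probes the deposited values gave 3789 rises and 7916 falls, median centring 4323 and 6415, and quantile normalization again 4341 and 5771. For the members, leaving out P21 replicate 1 gave 39 rises and 106 falls, and leaving out P21 replicate 2 gave 61 and 80. Over all probes these 2 fits gave 3425 and 7677, and 4087 and 8271. As deposited, all probes had a median change of −0.33 and the members one of −0.09. For all probes it was −0.20 after centring and −0.13 after quantile normalization, and for the members it turned to 0.04 and 0.11. Without P21 replicate 1 it was −0.36 for all probes and −0.28 for the members. With only the arrays of these 2 stages fitted, 83 members were called, of which 25 rose and 58 fell. Over all probes 7588 were called in that fit, with 2811 rises and 4777 falls.

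Between E12.5 and the adult 263 members (45.3%) were called, against 58% of all probes. Signal was higher in the adult in 122 (21.0%), against 23.9%, and lower in 141 (24.3%), against 34.1%. In 332 members (57.1%) the arrays of both stages were fully separated, without overlap, against 66.8% of all probes. Rises had a median of 2.12 and falls one of −1.90, against 2.42 and −2.40 over all called probes. BC172760_P1 rose by 7.52 (SE 0.29, adjusted p = 4.42e-12, limma) and AK132675_P1 by 6.65 (SE 0.33, adjusted p = 7.67e-11, limma). AF416735_P1 fell by 8.13 (SE 0.34, adjusted p = 9.61e-12, limma) and AV588426_P1 by 6.60 (SE 0.20, adjusted p = 3.38e-13, limma). In 114 of the called members (43.3%) the lower of the 2 stage means was below 6.53, in the range of the 25% dimmest probes, against 41.1% of all called probes, and in 24 (9.13%) both were, against 6.30%. Which direction was more common depended on the scaling and on E12.5 replicate 2. After quantile normalization again 148 members were higher and 120 lower, median centring gave 137 and 130, and leaving out E12.5 replicate 2 gave 137 and 133. Over all probes 9033 were higher and 12886 lower in the deposited values, and 9960 and 11376 after quantile normalization again. Median centring gave 9662 and 12023 of all probes, and leaving out E12.5 replicate 2 gave 9674 and 12849. For the members, leaving out E12.5 replicate 1 gave 110 higher and 146 lower, and leaving out replicate 3 gave 110 and 147. Averaging these 2 arrays gave 110 and 145, and leaving out adult replicate 1 gave 138 and 140. Over all probes the same fits gave 8532 and 12556, 8504 and 12604, 8510 and 12587, and 9351 and 13206.

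The members that stood out at a single stage differed from stage to stage in how far they led. At E12.5, CA532251_P1 exceeded the next highest stage by 2.93 and AV588426_P1 by 1.94. At E15.5, AK007918_P1 led by 2.5, with 9.10, 9.39 and 9.26 there and stage means from 6.39 to 6.75 elsewhere. CJ204751_P1 led by 2.24, with 7.58, 7.09 and 7.06 at E15.5 and stage means from 3.77 to 5.0 elsewhere. Both signals were therefore pulses, low before and after E15.5. In the adult, BU843812_P1 led by 4.80 and AK132675_P1 by 4.58.

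Leads at the juvenile stages were small. At P7, AK082188_P1 (8.27, 8.38 and 8.29) led by 0.58 and BQ443245_P1 (12.40, 12.33 and 12.09) by 0.45. At P14, CJ161017_P1 led by 0.83 with 7.07, 6.95 and 7.15, but single arrays of E15.5, P21 and the adult reached 6.91, 7.30 and 6.81. BX521937_P1 led by 0.81 at P14, with 10.84, 10.81 and 10.92, which no other array reached. At P21, AV277464_P1 led by 1.11. BB710262_P1 led by 0.60 at P21, with 12.08, 9.71 and 10.56, and this rested on P21 replicate 1. Without that array its range between stages was 0.90 in place of 1.5, and it no longer counted as differing. The call was also lost without E15.5 replicate 2.

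The brightest steady members held nearly the same signal at all 6 stages. Those with the highest mean signal among members with a range under 1 were BB761138_P1, AK198651_P1 and BB723068_P1. BB761138_P1 had stage means from 17.24 ± 0.12 at E15.5 to 17.75 ± 0.03 at P21 (SD, n = 3), a range of 0.52. AK198651_P1 ranged by 0.30, from 17.18 ± 0.18 at E15.5 to 17.48 ± 0.10 at P14 (SD, n = 3). BB723068_P1 also ranged by 0.30, from 16.58 ± 0.09 in the adult to 16.88 ± 0.19 at E15.5 (SD, n = 3). The F test gave an adjusted p of 0.0138 for BB761138_P1 (limma), whose small differences thus exceeded the spread between arrays, and 0.442 and 0.431 for the others (limma). These signals lie close to the highest value of the table, 18.34.

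The full-length cDNA records were mostly lower in the adult than at E12.5, while the ESTs went both ways, a division made after the identifiers were seen. Of the 77 full-length cDNA records 61 (79.2%) differed between stages, against 73.7% of all probes. Between E12.5 and the adult 44 were called, of which 7 were higher and 37 lower in the adult. Over all probes 41.2% of those called were higher. Among the 298 probes with American EST codes 165 (55.4%) differed between stages, and 69 were higher and 55 lower in the adult. Among the 171 with Japanese EST codes 99 (57.9%) differed, with 38 higher and 43 lower, a balance that turned to 44 and 38 after quantile normalization again and to 42 and 39 after median centring. The 23 with European codes gave 6 higher and 3 lower, and the 12 single submitted sequences 2 higher and 3 lower. The full-length records were somewhat brighter than the members as a whole, with a median signal of 7.89. These counts carry no test, and the clone libraries behind the records were not used here.

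Individual letter codes, chosen like the probes named for them after their values were seen, are given in the same way. Of 39 probes coded AA, 1 was higher and 16 were lower in the adult than at E12.5. The 15 probes coded BU gave 10 higher and 0 lower and the 18 coded CR gave 6 higher and 0 lower, by the same limma calls. At an unadjusted p below 0.05 the lower counts were 0 for BU and 1 for CR. Among the BU probes the rises ran from 1.45 for BU554910_P1 to 6.10 for BU962981_P1, and among the CR probes from 1.17 for CR516416_P1 to 4.47 for CR513841_P1. The 65 probes coded AK gave 5 higher and 31 lower, with AK132675_P1, the member with the largest range, among the 5. The AV code stood apart by brightness instead: its 34 probes had a median signal of 11.10, and 29 of them (85.3%) differed between stages, with 10 higher and 14 lower. Of all probes 73.7% differed, and in the brightest of the 5 groups ranked by mean signal 87.7% did. For the full-length records and the codes AA, AK, AV, BU and CR the more common direction was the same under both rescalings, with 10 higher and 33 lower full-length records and 3 higher and 13 lower AA probes after quantile normalization again. The codes were picked from these same values, so this is no independent support. The 65 AK probes are also part of the 77 full-length records. Without E12.5 replicate 2 and P21 replicate 1 the AA code gave 3 higher and 15 lower, BU 10 and 0, and CR 8 and 0. With the 25% dimmest probes left out, AA gave 0 higher and 8 lower, BU 5 and 0, and CR 5 and 0. CR gave 4 higher and 0 lower without E12.5 replicate 1, without E12.5 replicate 3 and with these 2 arrays averaged. In the same fits AA gave 1 and 16 and BU 10 and 0.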

How the data were processed

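RNA of 18 whole-testis samples was measured on 1-colour arrays and, per the submitters' processing notes, read with Agilent Feature Extraction 11.0.1.1. The authors deposited 1 value per probe and array, taken here as log2 signal. The log base is inferred from the range, and how the values were normalized or filtered is not given in these sources. All 37820 probes and 18 arrays entered a linear model with a mean for each stage, by lmFit and eBayes of limma 3.58.1 under R 4.3.3 (12 residual and 3.20 prior degrees of freedom). P-values were adjusted by Benjamini-Hochberg within each comparison over all probes, and calls needed an adjusted p below 0.05 and 1 log2 unit. The 5 adjacent pairs of stages, adult against E12.5 and an F test over the stages were run.

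The named probes are the 10 members with the largest range; for each pair of stages the 2 largest rises and 2 largest falls among called members without overlap; for each stage the 2 members that lead by most; and the 3 brightest with a range under 1. Probes named beyond this rule are marked as chosen after their values were seen. The rules for probes of 1 record and for gene lists found no probe. The members and rules were chosen with earlier results of these data known. The labels do not say that replicate numbers pair samples, so the numbers were not taken as pairs. Correlations of deviations from stage means between same-numbered arrays ran from −0.37 to 0.50. Differently numbered arrays were not compared, so these values do not decide whether the numbers pair samples. The alternatives were a replicate block, 2 rescalings (quantile normalization again and median centring), removal of the 25% dimmest probes, a trended and robust prior, a fit of the 6 arrays compared, removal of each array and of 2 arrays together, and averaging of E12.5 replicates 1 and 3. Precision is limited by the number of arrays.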

Additional observations from a re-analysis of the deposited data

How the results depend on the processing

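The counts of members kept within 1.5 times their value under most alternatives, and no named change turned its direction. For E15.5 against E12.5 the 71 calls became 111 with both E12.5 replicate 2 and P21 replicate 1 left out. Over all probes the 7602 calls became 11251. That fit kept adult replicate 1, which also stood apart. The calls of members ran from 50 to 107 when single arrays were left out. For P14 against P7 the 45 calls ran from 27 to 54 in the same way. For the adult against P21 the 140 calls became 83 when only the 6 arrays of these stages were fitted. They ran from 112 to 169 when single arrays were left out. The same kind of fit gave 59 calls for E15.5 against E12.5 and 78 for P7 against E15.5, where the full set gave 71 and 72. It gave 54 for P14 against P7 and 52 for P21 against P14, where the full set gave 45 and 56. The share highest in the adult, 30.4%, was 37.6% after quantile normalization again and 35.7% after median centring. It ran from 24.6% to 34.1% without single arrays and was 23.3% with both E12.5 replicate 2 and P21 replicate 1 left out. With both left out, the adult was highest for 89 of 382 members and 6792 of 29435 of all probes that differed. The full set gave 105 of 345 and 7050 of 27890. The cause of these moves was not tested. Leaving out single arrays gave 329 to 369 members that differed between stages, 50 to 75 calls for P7 against E15.5, 44 to 73 for P21 against P14 and 254 to 278 for the adult against E12.5. With the replicate block 351 members differed between stages and 266 were called between E12.5 and the adult. Of 1447 recomputed values, 1235 for named probes and 194 for counts and shares kept their direction and side of the threshold or stayed near the reported value, 9 for named probes lost the call and 9 counts or shares moved further. Part of this agreement was fixed beforehand. Most named probes were picked for large values, and leaving out an array of another stage cannot alter a change between 2 stages. A range between stage means is never negative, so named ranges could not turn their direction. Probes named under more than 1 rule also count more than once. The correlation between probes of 1 record could not be recomputed, as no record had several probes. Signal over background was not used here, so the limit for the dimmest members is unknown.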

Other observations

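Some members ran in parallel although they are named by different records. Among the 96 members with a range of at least 8-fold, the difference between AV463490_P1 and CO800513_P1 varied least over the 18 arrays, with an SD of 0.18 and a correlation of 0.992. AV491747_P1 followed AV463490_P1 with an SD of 0.21. The difference between AK188366_P1 and CN710360_P1 had an SD of 0.26 and a correlation of 0.996, and both stayed near the P14 level in P21 replicate 1. Such pairs share the arrays and stages, and the values are given as a description chosen after the values were seen. Whether these records come from the same transcripts was not tested.

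M26332_P1, a single submitted sequence outside the rule for named probes, rose at every step, from 12.65, 13.92 and 12.78 at E12.5 through 17.01, 17.10 and 17.09 at P14 to 18.16, 18.34 and 18.34 in the adult. In 5 arrays it held the highest value of the array. DV074327_P1, also chosen after its values were seen, had the largest range among members that rose at every step (6.07), from 5.20, 5.89 and 4.78 at E12.5 to 11.10, 11.74 and 11.24 in the adult.

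Single arrays far from the other 2 of their stage were mostly those of adult replicate 1. There, 12 members lay at least 8-fold below both other adult arrays while those differed by less than 2-fold, and 0 lay above. Such counts are given for members only, so they cannot be called particular to them. The largest gap was that of CK378901_P1, at 2.38 against 7.33 and 7.15. In E12.5 replicate 2, 4 members lay as far from both other arrays of the stage, 1 of them above, and the largest gap was that of AK135967_P1, at 6.08 against 11.21 and 11.16. In adult replicate 2 there was 1, CR518734_P1, which measured 11.12 against 6.03 and 5.30. In E12.5 replicate 3 there was 1, CF983472_P1, and in the other 14 arrays there were 0. These probes, like those of the parallel pairs, were chosen after their values were seen.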
